A study of Arabidopsis thaliana with 8 samples.

Results

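The MIR159 and MIR319 precursors of Arabidopsis seedlings were followed through their successive cuts, from the loop of the hairpin to its base. They were taken as every precursor of the deposited tables whose name places it in the MIR159 or MIR319 family, whatever its counts, which gave 6 of 108 precursors: MIR159a, MIR159b, MIR159c, MIR319a, MIR319b and MIR319c. The assay, SPARE (short for specific parallel analysis of RNA ends), ligates an adapter to the 5′ end of the fragment left after a precursor is cleaved, copies it with precursor-specific primers and amplifies it by PCR, so that the start of each tag marks a cut. The groups were fiery1 (labelled Fiery1 -/-), hyl1 (Hyl1 -/-), se (Se -/-) and wild type (Col), with 2 libraries each, all from seedlings 10 days old grown in continuous light. The labels give no allele numbers, and call the tissue a whole seedling bud. Replicate 1 of hyl1 and replicate 2 of se carry another source label than the other 6 libraries, so the values of every library are given. Nothing in the labels says that replicates came from separate cultures, so p-values measure the spread between these libraries, which may be technical. The assay reads precursors, so the mutated genes themselves could not be checked in these libraries.

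Plant miRNA precursors are cut in the nucleus by the RNase III enzyme DCL1, which works with the double-stranded RNA-binding protein HYL1 and the zinc-finger protein SE (SERRATE). FIERY1 is a phosphatase that removes a by-product which inhibits the XRN 5′-to-3′ exoribonucleases, so that uncapped RNA fragments persist in its absence. Most hairpins are cut first near the base, whereas MIR159 and MIR319 have a long stem that is cut first below the loop and then stepwise down to the base. miR159 is known to target MYB transcription factors, and miR319 targets TCP transcription factors that shape the leaf.

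The mature miRNAs fall into a pair of seed families. They are printed here because cut 3 of the ladder makes their first base and cut 4 lies just after their last, with the seed (bases 2 to 8) in capitals. Sequences were read from the TAIR10.1 reference, 5′ to 3′ on the strand of the gene, with U written as t.
miR159a: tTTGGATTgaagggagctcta
miR159b-3p: tTTGGATTgaagggagctctt
miR159c: tTTGGATTgaagggagctcct
miR319a: tTGGACTGaagggagctccct
miR319b: tTGGACTGaagggagctccct
miR319c: tTGGACTGaagggagctcctt
Each is 21 nt long. miR159a and miR159b-3p shared 20 of 21 bases, and miR319a and miR319b shared all 21. Between the families 17 to 19 of 20 bases were the same once miR319 was moved by 1 base.

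The loci were MIR159a (AT1G73687, chr1:27713233-27713416, minus strand), MIR159b (AT1G18075, chr1:6220646-6220841, plus strand), MIR159c (AT2G46255, chr2:18994632-18994856, plus strand), MIR319a (AT4G23713, chr4:12352956-12353131, plus strand), MIR319b (AT5G41663, chr5:16660469-16660640, minus strand) and MIR319c (AT2G40805, chr2:17029701-17029899, plus strand), each annotated as a MIRNA gene in TAIR10.1. The 3′ arms of 4 of them, 82 nt each, carry the ladder. Capitals mark the first base after cuts 1, 2, 3 and 4, counted from the loop, though no end was read at cut 4 of MIR319b.
MIR159a: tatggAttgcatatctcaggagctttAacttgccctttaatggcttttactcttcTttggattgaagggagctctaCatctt
MIR159b: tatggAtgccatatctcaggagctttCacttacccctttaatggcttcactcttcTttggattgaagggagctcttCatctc
MIR319a: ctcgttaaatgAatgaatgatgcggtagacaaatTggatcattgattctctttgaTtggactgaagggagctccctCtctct
MIR319b: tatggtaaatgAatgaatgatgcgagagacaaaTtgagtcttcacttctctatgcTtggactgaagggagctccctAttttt
They lie at chr1:27713228-27713309 (minus strand), chr1:6220758-6220839 (plus), chr4:12353054-12353135 (plus) and chr5:16660463-16660544 (minus). The arms of MIR159a and MIR159b were identical at 69 of 82 bases, those of MIR319a and MIR319b at 65, and those of MIR159b and MIR319a at 28. Arms were compared base by base with no gap or shift, so the 1-base shift between the families was not allowed for. Unshifted, miR159b-3p and miR319a themselves matched at 9 of 21 bases.

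The spacing of the ladder differed between the families. In MIR159a and MIR159b the cuts lay at -50, -29, 0 and 21 nt from the 5′ end of the miRNA, so that the steps were 21, 29 and 21 nt. In MIR319a they were placed at -44, -21, 0 and 21, in MIR319b at -44, -22, 0 and 21, and in MIR319c at -44, -23, 0 and 21. The long middle step of MIR159a held 14 unpaired bases in the fold predicted by RNAfold and that of MIR159b held 11, against 4, 4 and 2 in MIR319a, MIR319b and MIR319c. Cuts 3 and 4 were set by the annotated miRNA, whether or not ends were read there. In no library was an end read within 1 nt of cut 3 of MIR319c or of cut 4 of MIR319b. Cuts 1 and 2 are the positions in the search range whose mean share over the genotypes was highest, which need not hold the most counts: next to cut 2, position -23 of MIR319b and position -19 of MIR319a held more counts in all than the position chosen. The search range for cut 2 of MIR159a and MIR159b was widened after the -29 position had been seen. These positions are a description.

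Tags of 26 nt or more gave 453388 and 795030 counts in the fiery1 libraries, 45108 and 25753 in the hyl1 libraries and 41677 and 82159 in the se libraries, against 56554 and 121429 in wild type. The 6 precursors held 238912 of these counts, and MIR159b alone held 232393. The others held 1673 (MIR159a), 2422 (MIR319a), 1518 (MIR319b) and 906 (MIR319c). MIR159c had no tag of this length in any library, which with a floor of 3 counts allows up to that number per library, and its 2 shorter tags lie under the floor.

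MIR159b had ends at all 4 cuts in every library, in shares that differed between genotypes. In fiery1 the most used end was cut 4, the release of the miRNA from the base, whereas in hyl1, se and wild type it was cut 3, the 5′ end of the miRNA. Cut 4, counted within 1 nt, made up 36.2% and 37.7% of MIR159b ends in fiery1, 5.33% and 11.4% in hyl1, with 3.29% and 1.38% in se, against 6.97% and 3.95% in wild type. Both fiery1 libraries stood above every other library, hyl1 overlapped wild type, and both se libraries stood below both wild-type libraries. Cut 3 made up 18.4% and 19.1% in fiery1, 39.7% and 32.6% in hyl1, with 33.3% and 37.6% in se, against 59.1% and 59.7% in wild type. All 6 mutant libraries lay below both wild-type libraries at cut 3.

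Group means gave the same order. Cut 4 averaged 37.0% ± 1.01 in fiery1, 8.38% ± 4.31 in hyl1 and 2.33% ± 1.35 in se, against 5.46% ± 2.14 in wild type (SD, n = 2 each). Cut 3 averaged 18.8% ± 0.524 in fiery1, 36.1% ± 5.01 in hyl1 and 35.4% ± 3.06 in se, against 59.4% ± 0.417 in wild type (SD, n = 2 each). The differences at cut 3 were -40.60 points in fiery1, -23.25 in hyl1 and -23.95 in se, each with an exact two-sided permutation p of 0.333, and a design of 2 against 2 cannot give a smaller one. At cut 4 the difference was 31.50 points in fiery1 and -3.13 in se, both with the same exact permutation p of 0.333, and 2.91 points in hyl1 with an exact permutation p of 0.667. The 95% Wilson interval of a single library's share reached 1.36 points to either side at most, which covers counting error only, since the reads carry no molecular identifiers.

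**Figure D1:**
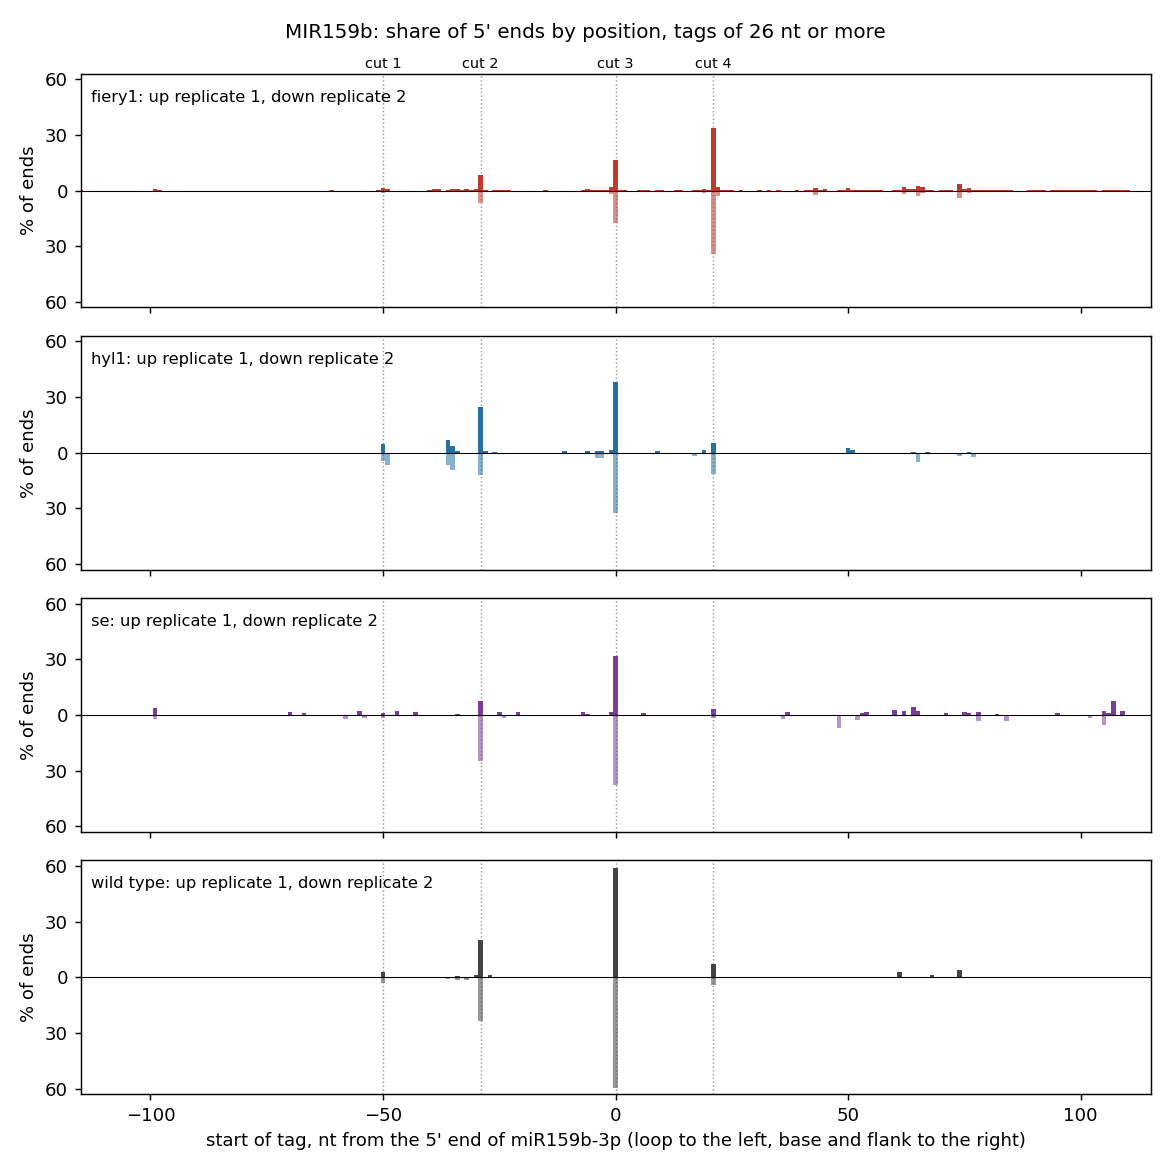
Share of MIR159b 5′ ends (vertical axis, percent of tags of 26 nt or more) by start position (horizontal axis, nt from the 5′ end of the miRNA), with replicate 1 drawn upward and replicate 2 downward for fiery1, hyl1, se and wild type from top to bottom; dotted lines mark the 4 cuts, and ends farther out are not drawn. The tallest bar is at cut 4 in both fiery1 libraries and at cut 3 in the other 6 libraries.

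The ratio of cut 4 ends to cut 3 ends put this in one number per library. It was 1.97 and 1.97 in fiery1, 0.134 and 0.351 in hyl1, with 0.0989 and 0.0367 in se, against 0.118 and 0.0662 in wild type. Fiery1 did not overlap any other genotype. Both hyl1 libraries lay above both wild-type libraries, while se overlapped wild type.

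The loop-proximal cuts of MIR159b were present in every library. Cut 1 counted 538 and 1713 tags at its exact position in fiery1, 302 and 201 in hyl1, with 70 and 125 in se, against 451 and 1070 in wild type. Within 1 nt this was 2.03% ± 0.0955 of ends in fiery1, 7.69% ± 4.44 in hyl1 and 1.52% ± 0.280 in se, against 2.90% ± 0.429 in wild type (SD, n = 2 each). Cut 2 made up 8.96% and 7.24% of ends in fiery1, 25.5% and 11.9% in hyl1, with 7.52% and 24.9% in se, against 20.9% and 23.7% in wild type. The hyl1 and se libraries were far apart from each other at this cut and overlapped wild type, while both fiery1 libraries were below both wild-type libraries.

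Ends between cuts 1 and 2 were most frequent in hyl1. The stretch between cuts 1 and 2 took 5.05% and 3.51% of MIR159b ends in fiery1, 11.2% and 16.4% in hyl1, with 4.20% and 0.355% in se, against 0.766% and 4.75% in wild type. Both hyl1 libraries stood above all others. Most of these lay at the neighbouring positions -36 and -35. Position -36 held 6.67% and 6.49% of ends in hyl1 (442 and 294 counts), against 0.184% and 1.14% in wild type. Position -35 held 3.73% and 9.29% in hyl1, against 0% and 0.545% in wild type. Neither passed the limma test over all positions, with adjusted p = 0.411 and 0.407. Between cuts 2 and 3 lay 2.30% and 2.85% of ends in fiery1, 4.42% and 5.56% in hyl1, with 5.67% and 2.02% in se, against 1.39% and 1.22% in wild type, so that all 6 mutant libraries stood above wild type. The stretch between cuts 3 and 4, inside the miRNA, held 2.18% and 2.20% of ends in fiery1, 2.16% and 1.90% in hyl1, with 0.945% and 0.0136% in se, against 0.00576% and 0% in wild type. That amounts to 1 tag in the 2 wild-type libraries, and 0 of 33376 ends in wild-type replicate 2 has an upper 95% Wilson limit of 0.0115%.

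**Figure D2:**
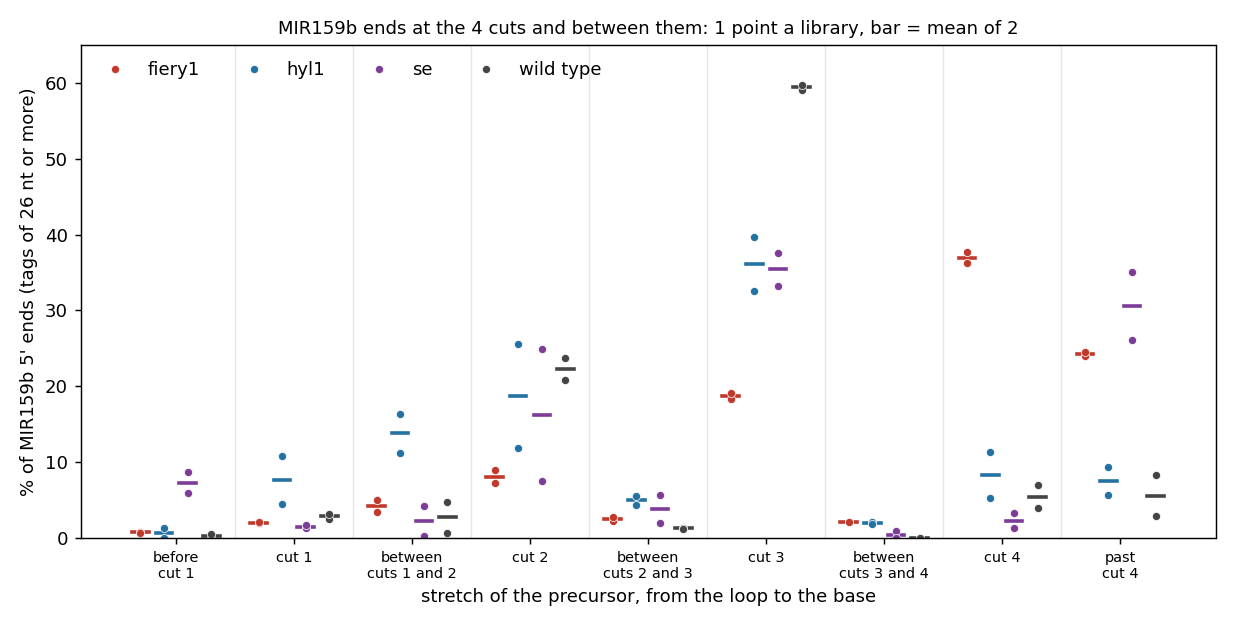
Share of MIR159b 5′ ends (vertical axis, percent of tags of 26 nt or more) at the 4 cuts, each within 1 nt, and in the stretches before, between and past them (horizontal axis, loop to base), with 1 point per library and a bar at the mean of 2 for fiery1, hyl1, se and wild type from left to right. At cut 3 the wild-type points sit at 59.1% and 59.7%, above all mutant libraries, and at cut 4 the fiery1 points sit at 36.2% and 37.7%, above all others.

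Ends past the base cut, in the flank of the hairpin, were more frequent in fiery1 and se. They made up 24.0% and 24.6% of MIR159b ends in fiery1, 5.70% and 9.42% in hyl1, with 35.0% and 26.1% in se, against 8.30% and 2.92% in wild type. The fiery1 and se libraries stood above both wild-type libraries, with differences of 18.70 and 24.96 points and an exact permutation p of 0.333 each, and hyl1 overlapped wild type. Position 74 held 3.50% and 4.24% of ends in fiery1, against 4.16% and 0.00599% in wild type, so that wild-type replicate 1 lay within the fiery1 range. Position 65 held 2.55% and 2.77% in fiery1, against 0.00576% and 0.345% in wild type (limma adjusted p = 0.423). There hyl1 had 0% and 5.03% and se 2.02% and 0.0409%, so that hyl1 replicate 2 lay above both fiery1 libraries. In se, positions 105 (108 and 398 counts) and 78 (80 and 221 counts) were read in both libraries, while position 48 had 0 and 530 counts and position 64 had 235 and 0.

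The rise past the annotated hairpin was not limited to MIR159b. Among the 18 precursors with at least 20 counts in every library, the share was higher without overlap in 61.1% in fiery1, 11.1% in hyl1 and 44.4% in se. It was lower without overlap in 3 precursors in fiery1, 3 in hyl1 and 1 in se. The median difference over the 18 was 0.725 points in fiery1, 0.176 in hyl1 and 10.4 in se. The difference for MIR159b was 18.4 points in fiery1, and 0 precursors had a larger one. In se it was 24.96 points, and 4 precursors had a larger one. In hyl1 it was 1.95 points, and 7 had a larger one.

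Se also had ends before cut 1, a stretch that takes in the loop and the 5′ arm of the hairpin. They made up 8.75% and 5.91% of MIR159b ends in se, against 0.00576% and 0.584% in wild type. Position -99 held 203 and 166 of the se counts, or 3.84% and 2.27% of ends. The same position was read in both fiery1 libraries (0.562% and 0.420%) and in wild-type replicate 2 (0.584%), so it was not particular to se. In fiery1 the stretch held 0.840% and 0.717%, and in hyl1 1.39% and 0%.

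The number of distinct MIR159b ends also separated the genotypes. At an equal depth of 4533 counts it was 104.4 and 104.1 positions in fiery1, 29.8 and 26 in hyl1, with 51.5 and 35.7 in se, against 16.8 and 24.2 in wild type. All 6 mutant libraries lay above both wild-type libraries, hyl1 by the least. Other precursors were not thinned to equal depth, so whether this order was particular to MIR159b was not tested. The fiery1 libraries shared 117 positions, of 118 and 121. The hyl1 libraries shared 13 of 32 and 26, the se libraries 28 of 53 and 42, and the wild-type libraries 15 of 25 and 32. Fiery1 was also the most deeply sequenced genotype, with 41647 and 116238 MIR159b counts, against 17353 and 33376 in wild type. Thinning to equal depth removes that difference in counts, but the part of library complexity before PCR was not tested.

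Single positions were tested with limma on the logit share, over 160 positions of 18 precursors. MIR159b was the one member with enough counts in every library, with 8 positions tested, and 0 of the 8 passed in each mutant. Over all positions 7.5% passed in fiery1, 1.88% in hyl1 (0.625% upward and 1.25% downward) and 0% in se. At an unadjusted p under 0.05 the counts for MIR159b were 0 in fiery1 (23.1% over all positions), 2 in hyl1 (9.38%) and 0 in se (8.75%), and edgeR diffSpliceDGE called 0 in each. Groups did not overlap at 5 of 8 positions in fiery1 (46.9% over all positions), 4 in hyl1 (20.6%) and 3 in se (31.9%). The exact position of cut 4 had a log2 odds of 3.22 ± 1.34 in fiery1 over wild type (SE, limma adjusted p = 0.213), and that of cut 3 had -2.86 ± 1.24 (SE, limma adjusted p = 0.224). The spread at each position is estimated over all 4 genotypes. With only fiery1 and wild type in the model, both positions passed (limma adjusted p = 0.0330 each), with the same log2 odds. In that model 72 of all 160 positions passed, against 7.5% in the model of all 4 genotypes.

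MIR159b was the dominant precursor of the family in every library. It made up 9.19% and 14.6% of the counts in fiery1, 14.7% and 17.6% in hyl1, with 12.7% and 8.92% in se, against 30.7% and 27.5% in wild type. All 6 mutant libraries lay below both wild-type libraries, where 73% of all precursors tested did not overlap with wild type in fiery1, 32.4% in hyl1 and 45.9% in se, in either direction. After TMM scaling it averaged 98453 ± 19883 CPM (counts scaled to an equal library size) in fiery1, 189963 ± 88303 in hyl1 and 100928 ± 4152 in se, against 330455 ± 35682 in wild type (SD, n = 2 each).

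MIR159b fell in fiery1, by the edgeR quasi-likelihood test, with a log2 fold change of -1.75 ± 0.40 (SE, adjusted p = 0.0198). Over the 74 precursors tested 20.3% passed in fiery1, 13.5% upward and 6.76% downward, 36.5% had an unadjusted p under 0.05, and the median log2 fold change was 1.34. The size varied with the tool. It was -3.10 with DESeq2 (adjusted p = 1.35e-16, 23 precursors called over all families) and -2.57 without a filter on low counts (edgeR adjusted p = 0.000484, 5 called). The call was lost on leaving out any 1 of the 4 libraries, where the log2 fold change ran from -1.89 to -1.48 and the edgeR adjusted p from 0.0574 to 0.244. In se the log2 fold change was -1.71 ± 0.40 (SE, edgeR adjusted p = 0.213) and in hyl1 -0.80 ± 0.39 (SE, edgeR adjusted p = 0.230). Neither passed, as did 0% of precursors in each, with 21.6% in se and 18.9% in hyl1 at an unadjusted p under 0.05. DESeq2 called MIR159b lower in both, at -1.81 in se (DESeq2 adjusted p = 1.75e-05, 23 precursors called over all families) and -1.16 in hyl1 (DESeq2 adjusted p = 0.00727, 18 called). The counts depend on which cleaved fragments are present as well as on how much precursor there is, and these cannot be told apart here. Fewer cells and less RNA per cell cannot be told apart either. Each level is relative to the other counts of its library, so a lower level of MIR159b and higher levels of other precursors cannot be told apart.

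**Figure D3:**
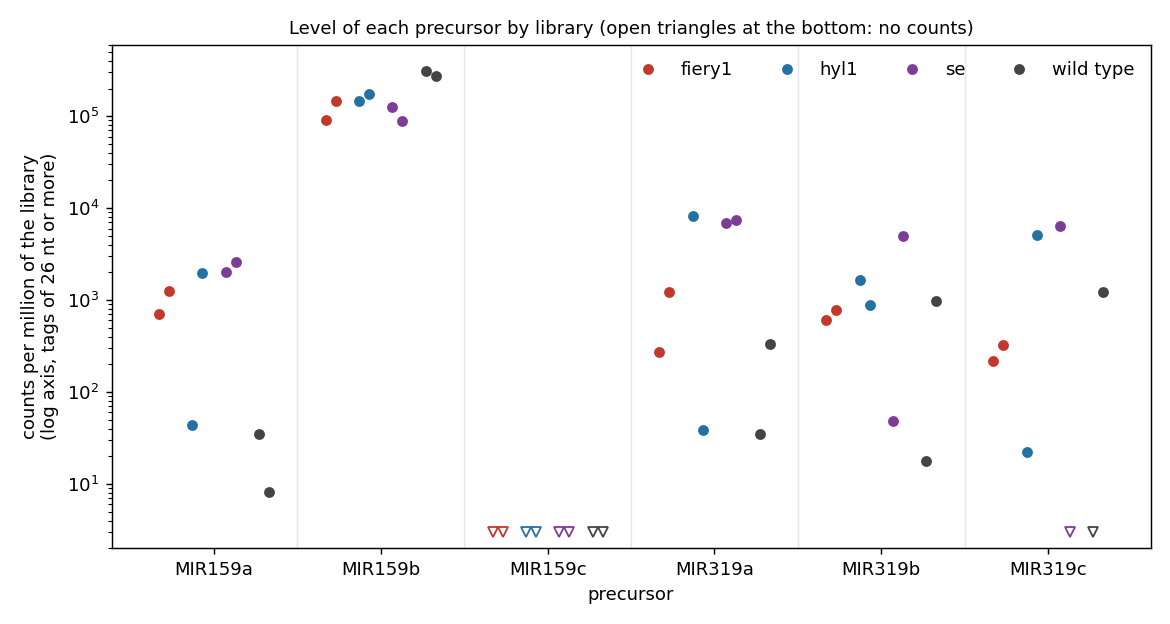
CPM (log axis, tags of 26 nt or more) for the 6 precursors, with 1 point per library for fiery1, hyl1, se and wild type from left to right, and open triangles for libraries with no counts. MIR159b lies below wild type in all 6 mutant libraries. The other precursors vary widely between the libraries of some genotypes, such as MIR319c in se, and less in others, such as MIR319a in se.

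The remaining precursors were sparse, and none passed the edgeR abundance test in the model of all 8 libraries. DESeq2 called MIR159a higher in hyl1 (adjusted p = 0.0384) and se (adjusted p = 0.0177) and MIR319a higher in se (adjusted p = 0.0420), and edgeR with only fiery1 and wild type in the model called MIR159a higher in fiery1 (adjusted p = 0.0386). Over all families DESeq2 called 18 precursors in hyl1 and 23 in se, and that edgeR model called 40 in fiery1, in either direction. MIR159a, whose miRNA differs from miR159b at 1 base, had 317 and 1004 counts in fiery1, 2 and 51 in hyl1, with 85 and 211 in se, against 2 and 1 in wild type. Its log2 fold change was 5.15 ± 2.64 in fiery1 (SE, edgeR adjusted p = 0.175), 5.98 ± 2.74 in hyl1 (SE, edgeR adjusted p = 0.225) and 6.63 ± 2.81 in se (SE, edgeR adjusted p = 0.217). The counts in wild type are within the floor of 3, so these fitted folds depend on the prior count. In hyl1 the value was 0.78 without replicate 2, which held 51 counts, with 2 in replicate 1. All 6 mutant libraries were at or above both wild-type libraries.

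In fiery1 MIR159a had ends at the same 4 cuts as MIR159b. Cut 1 had 7 and 86 counts at its exact position, cut 2 had 10 and 105, cut 3 had 61 and 129, and cut 4 had 228 and 557. The shares were 5.39% ± 4.495, 6.81% ± 5.16, 16.05% ± 4.52 and 63.7% ± 11.6 (SD, n = 2 each), highest at cut 4 in both libraries. Past cut 4 MIR159a had 0 of 317 and 0 of 1004 ends in fiery1, whereas MIR159b had 24.0% and 24.6% there. Position -95, upstream of cut 1, had 11 and 126 counts. Outside fiery1 the ends at cuts were few, with 2 at cut 4 in hyl1 replicate 1, against 2 at cut 1 in wild-type replicate 1 and 1 at cut 4 in wild-type replicate 2, which were all the tags of these libraries. In hyl1 replicate 2, 50 of 51 counts lay at position -181, before the annotated hairpin, in se replicate 1 all 85 lay at position 89, and in se replicate 2 all 211 lay at position -181. Position -181 was thus read in 1 library each of hyl1 and se, and position 89 in 1 library.

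MIR319a had 124 and 983 counts in fiery1, 374 and 1 in hyl1, with 287 and 611 in se, against 2 and 40 in wild type. Its log2 fold change was 1.37 ± 2.17 in fiery1, 3.97 ± 2.40 in hyl1 and 4.89 ± 2.50 in se (SE), with edgeR adjusted p = 0.695, 0.317 and 0.249. In hyl1 the value was -2.04 without replicate 1, and in fiery1 it ran from 0.14 to 4.22 with 1 library left out. Cut 4 had 47 and 375 counts in fiery1 and 93 and 209 in se, or 38.0% ± 0.173 and 33.3% ± 1.27 of ends (SD, n = 2 each), against 2 and 0 counts in wild type. Cut 1 had 29 and 216 counts in fiery1 and 111 in hyl1 replicate 1. Cut 3 had no ends within 1 nt in either fiery1 library, while in hyl1 replicate 1 it held 34.9% of the ends at cuts and in se replicate 1 it held 81 counts. So in fiery1 ends were read at cut 4 but not at cut 3, while both were read in MIR159a and MIR159b. Past the base, positions 53 and 60 recurred in both fiery1 libraries, with 14 and 110 counts and with 11 and 104 counts, and position -19 had 7 and 85. In se the libraries used different ends: position -22 had 71 counts in replicate 1, while positions -19 and 19 had 134 and 185 in replicate 2. All but cut 4 of the MIR319a positions named in se were read in 1 of its 2 libraries.

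MIR319b had 274 and 614 counts in fiery1, 75 and 23 in hyl1, with 2 and 410 in se, against 1 and 119 in wild type. Cut 1 had 129 and 56 counts in fiery1, 74 and 0 in hyl1, with 1 and 187 in se, against none in wild type. Next to cut 2, position -23 had 55 and 248 counts in fiery1 and 0 and 23 in hyl1, whereas 117 of 119 counts in wild-type replicate 2 lay at position -22. Next to cut 3, position -1 had 20 and 77 counts in fiery1 and 0 and 222 in se, against 0 and 1 in wild type. Position -19 had 16 and 124 counts in fiery1, and position 59, past the base, had 48 and 39. No library had an end at cut 4 of MIR319b.

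MIR319c had 99 and 260 counts in fiery1, 1 and 132 in hyl1, with 266 and 0 in se, against 0 and 148 in wild type. Its ends in hyl1 replicate 2 (132) and wild-type replicate 2 (148) all lay at cut 1, and se replicate 1 had 93 there and 107 at cut 2. Fiery1 had none at cut 1, and its ends lay at positions -24 (8 and 101), -23 (54 and 26), -21 (27 and 11) and 22 (10 and 122), the last of them 1 nt past cut 4. Within 1 nt of cut 3, MIR319c had no end in any library. For MIR319b the log2 fold changes were -0.17 ± 2.47, 1.08 ± 2.51 and 2.10 ± 2.57 in fiery1, hyl1 and se, and for MIR319c -1.80 ± 3.35, 2.22 ± 3.41 and 1.72 ± 3.35 (SE, edgeR adjusted p from 0.676 to 0.948). Each of these directions but that of MIR319b in hyl1 turned when 1 library was left out.

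**Figure D4:**
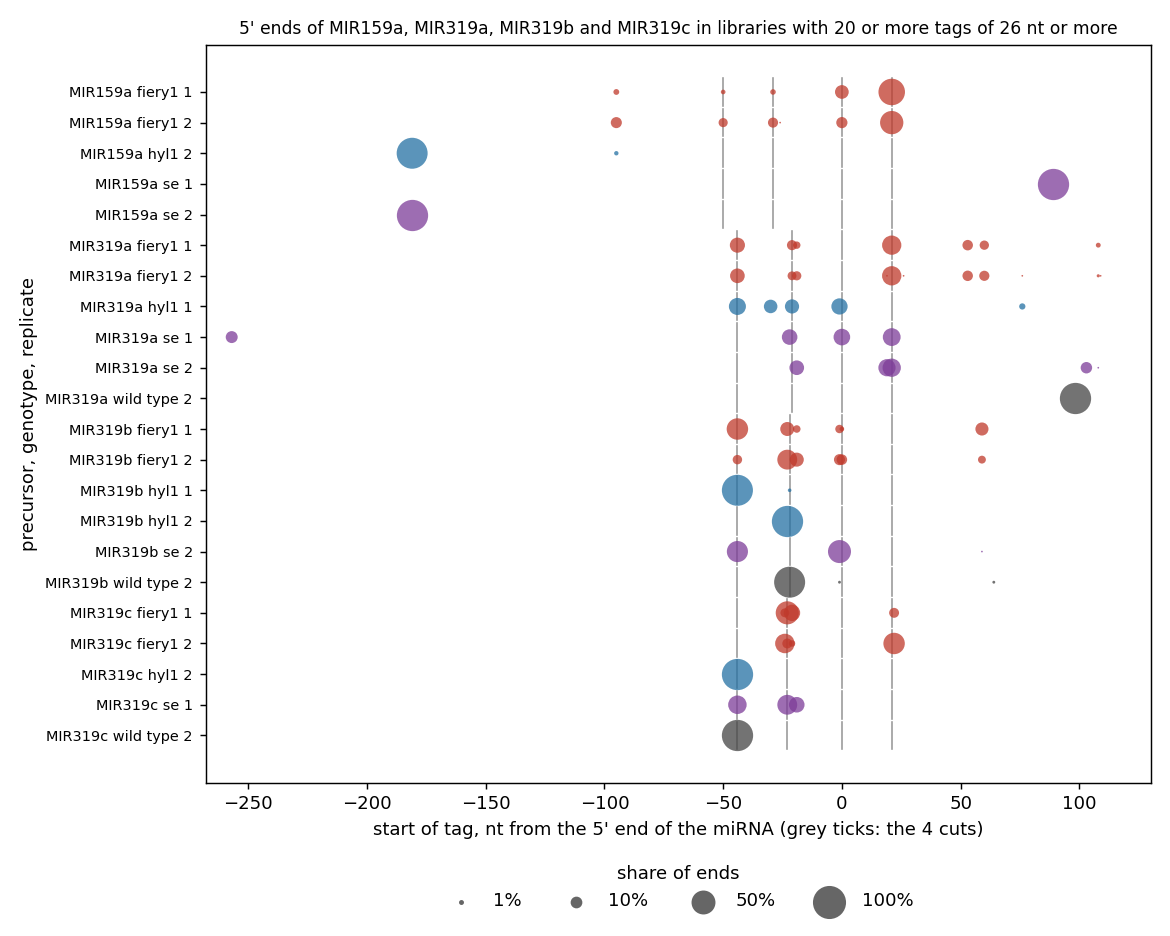
Position of 5′ ends (horizontal axis, nt from the 5′ end of the miRNA) of MIR159a, MIR319a, MIR319b and MIR319c, 1 row per library with at least 20 counts, mutants above wild type; the area of a dot is the share of the library's ends for that precursor, and grey ticks mark the 4 cuts. The fiery1 rows have several dots along the ladder in both libraries, while many rows of the other genotypes hold 1 large dot.

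Other families gave the context for abundance in fiery1. Of 12 tested precursors of other loop-to-base families (MIR156, MIR160, MIR162, MIR171), 3 rose and 1 fell, with a median log2 fold change of 3.61. Of 38 of the short base-to-loop families, 5 rose and 2 fell, with a median of 2.80. Of the 5 tested members 0 rose and 1 fell, with a median of -0.17. That median is the value of MIR319b (SE 2.47), and the members ran from -1.80 (MIR319c) to 5.15 (MIR159a). Over all 74 tested precursors 10 rose and 5 fell, with a median of 1.34. In hyl1 and se 0 passed in any of these lists by edgeR, while DESeq2 called 18 precursors in hyl1 and 23 in se over all families.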

How the data were processed

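The deposited tables give, for each tag, the authors' raw counts of identical sequences with its precursor, start position and length. Cutadapt and TAIR10 are named in the submitters' processing notes, while no aligner is named there or in the labels. Of 6109 entries 13 had a blank count and were left out, none of a MIR159 or MIR319 precursor. Each of 111 precursor names was placed on TAIR10.1 by exact matching of its tags, and names within 5 nt were merged into 108 precursors. Counts of tags of 26 nt or more were summed by position. For abundance, all 8 libraries entered 1 quasi-likelihood model in edgeR 4.0.16, with TMM scaling and the filterByExpr filter at a minimum count of 10. The SE given with an edgeR log2 fold change is its absolute value divided by the square root of the test's F value. It is therefore approximate, above all where counts are few. Shares by position, as logits with an offset of 0.5, went into limma 3.58.1, restricted to precursors that reached 20 counts in all libraries and to positions whose mean share was at least 1%. P-values were adjusted by Benjamini-Hochberg across every feature tested, and the threshold was 0.05. DESeq2 1.42.0 was an alternative, and hairpins were folded with RNAfold 2.7.2. The fits were tested on simulated data, whose spread was set in advance and not estimated from these libraries. For abundance, 19 of 19 simulated 16-fold changes were recovered, with 3 false calls. For position shares, 20 of 20 simulated shifts were recovered, with 0 false calls. How often the fits err at the spread of these libraries was not tested. Cut shares count ends within 1 nt. Named positions are the 4 cuts and any position with at least 5% of a precursor's ends in a genotype with at least 20 counts in each library, and others named for MIR159b were chosen after their values were seen. Cut 2 was to be sought 17 to 25 nt before the miRNA, and the range was widened to 34 nt after the data had been seen. The members and lists were chosen with earlier results of these data known.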

Additional observations from a re-analysis of the deposited data

Results flagged for a closer look

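Tags of 18 to 25 nt, which no comparison above uses, had more CPM of all tags than in wild type for 4 precursors. Such tags made up 86.1% and 83.9% of all counts in se and 3.70% and 3.23% in fiery1, against 29.5% and 4.05% in wild type. For MIR319c they averaged 34751 CPM, relative to all tags, in se (20166 and 49336), against 1459 and 2457 in wild type. For MIR159b they averaged 4723 in se (4093 and 5352) and 497 in fiery1 (355 and 639), against 62.4 and 118.5 in wild type. For MIR319a they averaged 851 in se (1082 and 621) and 76.0 in fiery1 (85.0 and 66.9), against 0 and 31.6 in wild type. For MIR319b they averaged 683 in se (561 and 805), against 262 and 205 in wild type. As a share of the library's own short tags, MIR319c held 2.34% and 5.88% in se, against 0.496% and 6.07% in wild type, which overlap. MIR319b held 0.0652% and 0.0960% in se, against 0.0889% and 0.507% in wild type, which also overlap. MIR319a held 0.126% and 0.0740% in se and 0.230% and 0.207% in fiery1, against 0% and 0.0780% in wild type. MIR159b held 0.475% and 0.638% in se and 0.960% and 1.98% in fiery1, against 0.0212% and 0.293% in wild type. The fiery1 values of MIR159b and MIR319a and the se values of MIR159b stood above wild type on this scale too. In each of the 6 precursors 100% of the short tags ended within 1 nt of a fixed base, 108 to 124 nt past the base cut, and 98.3% of those of MIR319c also began at 1 position.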

How the results depend on the processing

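Counts of precursors passing in fiery1 were 15, against 5 with no filter, 23 with DESeq2, 1 with all tags, 40 in a model of the 2 genotypes alone and 0 to 2 with 1 library left out. In hyl1 they were 0, against 18 with DESeq2 and 0 to 2 with 1 library left out. In se they were 0, against 2 with no filter, 23 with DESeq2, 17 with all tags, 1 with only the 2 genotypes and 0 to 1 with 1 library left out. Counts of positions passing in fiery1 were 12, against 0 with a minimum of 10 counts, 64 with a mean share of 0.1%, 0 with diffSpliceDGE, 72 with only the 2 genotypes and 0 to 0 with 1 library left out. In hyl1 they were 3, against 1 with a minimum of 10 counts, 5 with all tags, 0 with diffSpliceDGE, 0 with only the 2 genotypes and 0 to 12 with 1 library left out. In se they were 0, against 8 with all tags and 0 to 30 with 1 library left out. The causes were not tested.

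With the replicate block, 0 precursors and 0 positions passed in fiery1 and 0 positions in hyl1, and MIR159b in fiery1 had a log2 fold change of -1.76 (edgeR adjusted p = 0.0940). Same-numbered libraries had deviations correlated from -0.139 to 0.223, so no pairing by number was seen. Whether libraries shared a preparation was not tested. Under the block MIR319b in fiery1 turned to 1.84 and MIR319c to 0.57.

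For MIR159b the difference at cut 3 in fiery1 was -42.57 points at the exact position (-40.98 to -40.23 with 1 library left out), and that at cut 4 was 28.69 (29.99 to 33.01). In hyl1 the ranges with 1 library left out were -26.80 to -19.71 at cut 3 and -0.136 to 5.96 at cut 4. In se cut 3 was -32.16 with all tags (-26.12 to -21.78 with 1 library left out), and cut 4 ran from -4.64 to -1.62. With cut 2 sought in the first range, its MIR159b position was -24, where few ends lay. MIR159b in fiery1 was also not called with all tags (log2 fold change -1.46, edgeR adjusted p = 0.109). In se it was called with no filter (-2.07) and all tags (-3.92). By library totals its value in fiery1 was -1.29, against a median of 1.91 over all precursors.

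Several uncalled directions turned. By library totals MIR319b in fiery1 was 0.46. With diffSpliceDGE the log2 odds of MIR159b were -1.09 at position 74 in hyl1 and 0.23 at position -29 in se. With 1 library left out, log2 fold changes ran from -1.14 to 5.14 for MIR319b and -2.80 to 8.87 for MIR319c in fiery1, -2.04 to 6.80 for MIR319a and -5.33 to 12.15 for MIR319c in hyl1, and -4.19 to 7.29 for MIR319b and -10.69 to 12.40 for MIR319c in se. Log2 odds of MIR159b positions ran from -2.30 to 0.32 (-36) and -0.12 to 9.06 (74) in fiery1. In hyl1 they ran from -1.04 to 0.23 (-29), -2.86 to 6.60 (65) and -4.55 to 4.63 (74). In se they ran from -2.53 to 0.084 (-36), -5.30 to 2.27 (-35), -1.77 to 0.26 (-29), -0.20 to 5.24 (65) and -7.13 to 2.05 (74). With 2 libraries a genotype and few counts outside MIR159b, depth limits what can be said of the other 5 precursors.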
